A study of Mus musculus with 5 samples.

Results

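The genes of the BAF family of chromatin remodelling complexes were examined in 2 lists of H3K9ac peaks, one from DOP-treated and one from untreated STHdh Q111 cells. The members were 10 subunit genes (Arid1a, Arid1b, Arid2, Smarca2, Smarca4, Smarcb1, Smarcc1, Smarcc2, Smarcd1 and Smarce1) out of 22380 protein-coding genes of the GENCODE vM1 annotation. A peak was assigned to a member if no more than 10 kb separated its centre from one of the transcript starts of that gene, which gave 33 of the 34286 peaks of the DOP-treated list and 42 of the 33355 peaks of the untreated list. The family was chosen by a measured value, since Arid1a holds one of the highest-scoring peaks found in the untreated list alone. The difference between the lists at Arid1a is therefore a description of why the family was picked, and counts that include it carry that choice.

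STHdh Q111 cells are a conditionally immortalised line of mouse striatal progenitor cells, of C57BL/6 background in the labels, in which both huntingtin alleles carry an expanded CAG tract (genotype STHdhQ111/Q111). All samples, the controls included, were of this mutant genotype and were kept in serum-free medium for 24 h, with either 4 mM 4-deoxypyridoxine hydrochloride (DOP, an inhibitor of sphingosine-1-phosphate lyase) or the DPBS vehicle (untreated). H3K9ac chromatin was immunoprecipitated from 2 samples per condition, and 1 IgG sample of serum-starved cells served as the negative control. Only 1 peak list per condition was analysed, so no difference below has a replicate check, no test was made, and read depth is unknown. Of 4 neural progenitor markers, Vim had peaks (3 DOP-treated, 4 untreated), whereas Nes, Sox2 and Pax6 had 0 in both lists. The mature neuron markers Rbfox3, Syt1 and Snap25 also had 0, and of 3 striatal neuron markers only Ppp1r1b had peaks, 4 in each list. The astrocyte markers Gfap and Aqp4 had 0. Of the oligodendrocyte markers, Mbp had 2 DOP-treated and 0 untreated peaks and Mog 1 and 2, the highest at score percentile 23.73 of its list.

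BAF complexes, the mammalian relatives of yeast SWI/SNF, use the energy of ATP to slide or evict nucleosomes. Each complex is built around an ATPase, either Smarca4 (BRG1) or Smarca2 (BRM), on a scaffold of Smarcc1 and Smarcc2. The canonical complex carries the ARID subunit Arid1a or Arid1b, and the PBAF complex carries Arid2. In the developing nervous system, exchange of subunits accompanies the passage from dividing progenitors to neurons. H3K9ac is an acetyl mark of histone H3 found at the promoters of active genes, so the peaks described here lie at the genes encoding the complexes and do not show where the complexes bind.

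Sequences (mm9) are given for selected peaks, written 5′ to 3′ on the strand of the gene with CG dinucleotides in capitals. Where a peak overlapped an annotated untranslated region, only the part outside it is printed. The first pair is from Arid1a: the part of its highest-scoring untreated-only peak at chr4:133309527-133309646 (minus strand) that lies outside untranslated regions, and the only DOP-treated peak of the gene, at chr4:133313059-133313258 (minus strand), upstream of its outermost start.
Arid1a untreated-only: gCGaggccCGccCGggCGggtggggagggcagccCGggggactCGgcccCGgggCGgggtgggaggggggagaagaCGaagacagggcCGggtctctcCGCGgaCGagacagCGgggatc
Arid1a DOP-treated: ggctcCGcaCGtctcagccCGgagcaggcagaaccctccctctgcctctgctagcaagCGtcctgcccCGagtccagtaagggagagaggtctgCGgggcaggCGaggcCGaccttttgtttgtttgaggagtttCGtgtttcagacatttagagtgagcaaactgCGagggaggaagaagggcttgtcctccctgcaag
The first holds 14 CG dinucleotides in 120 bases and the second 10 in 200 bases.

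The next pair shows the highest-scoring untreated-only peak of Arid1b, in a coding exon at chr17:4995425-4995624 (plus strand), and the peak with the highest score of any member, upstream of Arid2 at chr15:96117529-96117728 (plus strand), which was called in both lists.
Arid1b untreated-only: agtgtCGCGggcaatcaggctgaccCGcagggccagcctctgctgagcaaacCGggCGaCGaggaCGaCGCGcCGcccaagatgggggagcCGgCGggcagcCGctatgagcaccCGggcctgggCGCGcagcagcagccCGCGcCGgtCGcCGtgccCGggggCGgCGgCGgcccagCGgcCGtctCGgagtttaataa
Arid2 shared: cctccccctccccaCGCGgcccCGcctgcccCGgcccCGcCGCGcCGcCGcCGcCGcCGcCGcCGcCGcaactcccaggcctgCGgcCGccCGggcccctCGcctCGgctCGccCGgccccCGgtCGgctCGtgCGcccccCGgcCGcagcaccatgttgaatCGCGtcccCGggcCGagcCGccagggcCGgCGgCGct
Both are dense in CG dinucleotides, with 28 in the Arid1b peak and 36 in the Arid2 peak.

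The last pair shows peaks found in a single list, with scores of 336 (percentile 42.58) and 668 (percentile 71.45). They are the untreated-only peak in an intron of Smarcc2 at chr10:127897275-127897474 (plus strand) and the DOP-only peak upstream of Smarcb1 at chr10:75384878-75385077 (minus strand).
Smarcc2 untreated-only: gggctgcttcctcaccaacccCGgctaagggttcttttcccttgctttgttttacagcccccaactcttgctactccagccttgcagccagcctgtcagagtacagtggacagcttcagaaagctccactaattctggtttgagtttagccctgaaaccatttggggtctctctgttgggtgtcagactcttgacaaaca
Smarcb1 DOP-only: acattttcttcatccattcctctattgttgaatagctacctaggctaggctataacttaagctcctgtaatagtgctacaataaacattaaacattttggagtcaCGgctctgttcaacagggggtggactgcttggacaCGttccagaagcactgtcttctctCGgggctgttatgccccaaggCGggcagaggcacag
They hold 1 and 4 CG dinucleotides, the fewest among the members' single-list peaks of their list. Among the DOP-only peaks this did not follow the score. Those of Smarca2 (score 334.9) and Smarcc1 (277.5) scored lower and held 15 and 6 over the full interval. The 10 untreated-only peaks of the members held 1 to 32 (median 12), and the 4 DOP-only peaks 4 to 23 (median 10.5).

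All 10 members had a peak in both lists, whereas 57.7% of protein-coding genes had a DOP-treated peak and 56.9% an untreated peak. Peaks overlapping by at least 1 bp were called shared. By this rule 4 of the 33 DOP-treated peaks (12.1%) were DOP-only, beside 20% of all peaks of that list, and 10 of the 42 untreated peaks (23.8%) were untreated-only, beside 16.7% of all. The untreated count leans on the gene that chose the family: without Arid1a it was 6 of 36 (16.7%), and the DOP-only count was 4 of 32 (12.5%). At least 1 DOP-only peak was present at 4 members, Smarca2, Smarcb1, Smarcc1 and Smarce1 (36.7% of genes with a peak in either list), and at least 1 untreated-only peak at 4, Smarca2, Arid1a, Arid1b and Smarcc2 (30.8%). Smarce1 was the 1 member with more DOP-treated than untreated peaks (32.5% of genes), and Smarca2, Arid1a, Arid1b and Arid2 had fewer (28.5%).

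**Figure D1:**
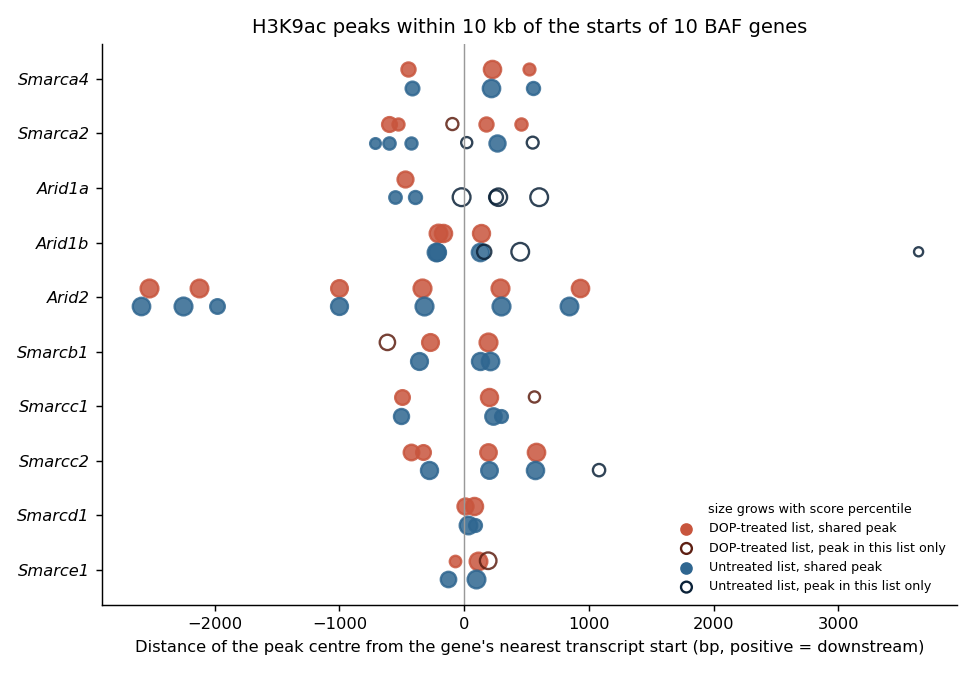
Position of every H3K9ac peak of the 10 genes, as the distance in bp of its centre from the nearest transcript start of the gene (positive values lie downstream), with the DOP-treated list above the untreated list in each row. Point size grows with the score percentile within the list, filled points are shared peaks and open points are peaks of that list alone. The large open points of Arid1a have no DOP-treated counterpart, while most members show matching points in both rows.

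The peaks' scores are the authors' values, whose definition is not given in the sources used here. Single scores are therefore placed within their own list by a percentile, the percentage of the list's peaks with that score or a lower one. Ratios between the lists, given further below, compare the deposited scores without scaling. The 29 shared DOP-treated peaks of the members had a median percentile of 87.45, and their 32 shared untreated peaks 88.62, against 58.53 and 56.75 for all shared peaks. Peaks found in a single list had lower percentiles, with a median of 55.98 for the 4 DOP-only and 58.44 for the 10 untreated-only peaks of the members, against 15.55 and 15.23 over the whole lists. The untreated-only median carries the 4 peaks of Arid1a, and was 40.86 over the other 6. The whole-list values were not restricted by position, unlike the members' peaks. Within 1 kb of a start lay 25700 of the 34286 DOP-treated and 25423 of the 33355 untreated peaks of the whole lists.

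Scores were also summed over the peaks of each gene, which moves with how many peaks were called. The sums were compared as deposited, so a difference in scale between the lists is not removed. The log2 ratio of the sums, DOP-treated over untreated, had a median of -0.0261 over the 10 members and 0.102 over the 12375 genes with a peak in both lists, of which 5% lay below -0.304 and 5% above 0.629. The ratio was below 0 for 6 of 10 members and for 31.7% of all genes, and below the median of all genes for 7 of 10. These counts include Arid1a, which chose the family, and also Smarca4 (-0.05) and Smarcc2 (-0.01), which lay close to 0. Without Arid1a the median log2 ratio was -0.00614 over the other 9 members. No member had a sum at least 1.5 times higher in the DOP-treated list (6.04% of genes), and Arid1a and Arid1b had sums at least 1.5 times higher in the untreated list (1.49% of genes). The other 8 members lay between -0.16 and 0.21. With scores divided by the median of their list, the log2 ratio was -3.06 for Arid1a and -0.743 for Arid1b.

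**Figure D2:**
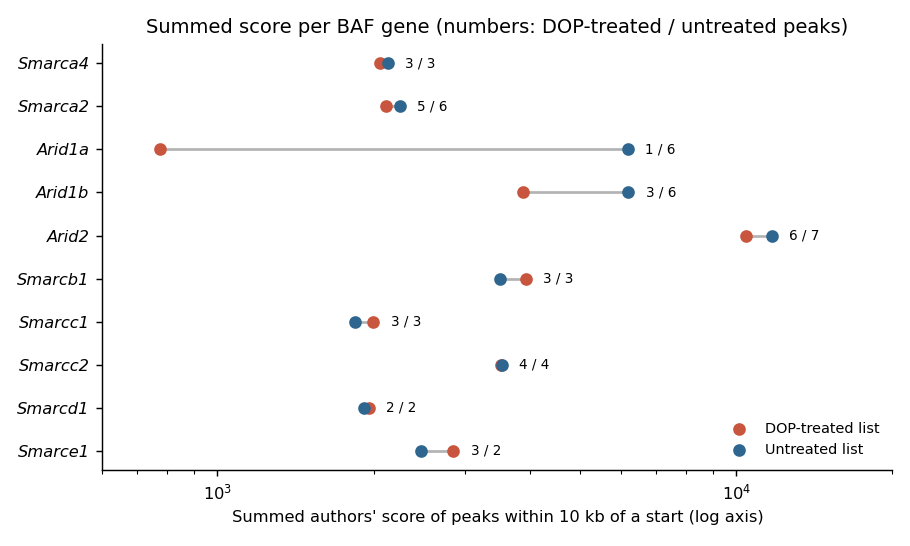
Summed score of the H3K9ac peaks within 10 kb of a start of each of the 10 genes, in the DOP-treated and the untreated list, on a log axis. Each point is 1 list with no replicate, the numbers beside the points count DOP-treated and untreated peaks, and the points of Arid1a are far apart (774 and 6175), those of Arid1b less so (3875 and 6194), and those of the other genes close together.

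**Figure D3:**
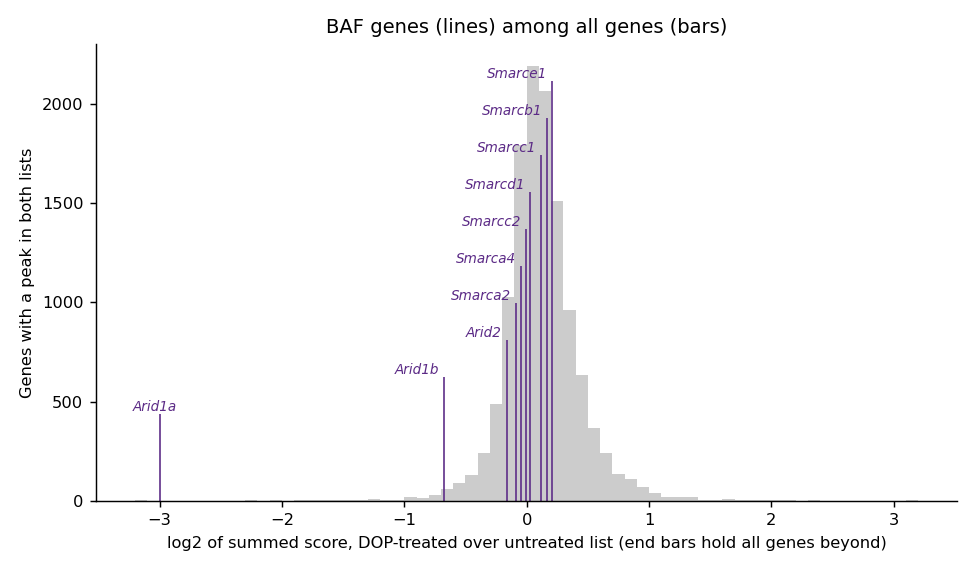
Distribution of the log2 ratio of summed score, DOP-treated over untreated, over the 12375 genes with a peak in both lists, with the 10 genes marked by lines whose heights carry no value; the end bars also hold the genes beyond the axis. Arid1a lies in the far left tail at -3.00 and Arid1b at -0.68. The other genes lie between -0.16 and 0.21, where the median of the distribution is 0.102. Among them Arid2, Smarca2 and Smarca4 stand at percentiles 11.3, 19.0 and 24.5 of all genes.

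Smarca4 and Smarca2, the alternative ATPases, had sums that differed little between the lists, while the peaks called at Smarca2 did differ. Smarca4, on chromosome 9, had 3 peaks in each list, and all were shared. Its sums were 2061 in the DOP-treated and 2128 in the untreated list (log2 ratio -0.05, covered length 600 bp in both with overlapping bases counted once, mean score 687 and 709.3). The highest peak lay in an intron, 222 bp downstream of a start in the DOP-treated list (score 1229.5, percentile 92.94) and 217 bp downstream in the untreated list (1284.3, percentile 93.98). Smarca4 thus kept the same arrangement of 1 upstream and 2 downstream peaks.

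Smarca2, on chromosome 19, has starts spread over 146787 bp, and its peaks were weaker. It had 5 DOP-treated peaks with a summed score of 2116 over 1000 bp and 6 untreated peaks with 2248 over 1113 bp (log2 ratio -0.09, mean score 423.2 and 374.7). Its highest percentile was 66.39 in the DOP-treated and 79.39 in the untreated list. The number of peaks called at each start differed between the lists: around the start at 26681760 there were 3 DOP-treated peaks and 1 untreated peak, and around the start at 26822893, inside the gene, 1 and 4. Both starts had shared peaks. The DOP-only peak, in an intron at 26681666, scored 334.9, and the untreated-only peaks at 26822914 (5′ UTR) and 26823443 (intron) scored 258.9 and 307.1. All 3 lay below the middle of their list, at percentiles of 40.51, 33.0 and 39.14.

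Among the ARID subunits, which carry a DNA-binding domain, Arid1a and Arid1b had a ratio past 1.5, and Arid2 did not. Arid1a is the gene that chose the family, and by highest score Arid1b stayed below that limit. Arid1a (ENSMUSG00000007880, chromosome 4, minus strand, 133234923 to 133312684) encodes the ARID subunit most often mutated in human cancers. It had 1 DOP-treated peak with a score of 774 over 200 bp, and 6 untreated peaks with a summed score of 6175 over 1165 bp, or 7.98 times as much (log2 ratio -3.00, mean score 774 and 1029). That ratio was number 4 from the lowest of the 12375 genes, a rank that carries the choice of the family by this gene. The highest single scores were closer, 774 and 1914.2 (log2 ratio -1.31).

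The peaks of Arid1a fell into 2 places that match its transcript starts. At the outer start, 133312684, which is used by 1 protein-coding transcript, the lists were alike upstream: the DOP-treated peak was centred at 133313158 (percentile 77.5), between untreated peaks at 133313074 (score 387.1, percentile 48.71) and 133313239 (348.9, percentile 44.21). The untreated list added a peak in the 5′ UTR at 133312428 (463, percentile 56.56), 730 bp from the DOP-treated peak. At the inner start, 133309526, which is shared by 3 protein-coding transcripts, only the untreated list had peaks. They were centred at 133308924 in a coding exon (1762.1, percentile 98.1), at 133309251 in a coding exon (1299.7, percentile 94.21) and at 133309546 in an intron of the longer transcript, 20 bp upstream of the start (1914.2, percentile 98.7).

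The nearest DOP-treated peak to this inner group was 3612 bp away, on the side of the outer start. On the other side, counted from the innermost untreated peak at 133308924, the next DOP-treated peak was 79807 bp and the next untreated peak 80104 bp away. The DOP-treated list therefore had 0 peaks within the body of the gene, where the untreated list had 4. The untreated list held 4828 clusters of at least 3 peaks with centres chained within 1 kb, of which 41 had no DOP-treated centre within 1 kb. Arid1a's inner group was the 1 cluster among these 41 whose peaks all stood at percentile 90 or above. In the DOP-treated list 1 of the 49 corresponding clusters met that limit, at Orc6 and Vps35 on chromosome 8, so each list held 1. These limits were chosen after the scores of Arid1a were seen.

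Arid1b (chromosome 17, plus strand) encodes the subunit that takes the place of Arid1a in the other form of the canonical complex. It had 3 DOP-treated peaks (summed score 3875 over 600 bp, mean 1292) and 6 untreated peaks (6194 over 1200 bp, mean 1032), a log2 ratio of -0.68. All 3 DOP-treated peaks had an untreated partner within 47 bp, and their scores were close: 1188 and 1056.7, 1576.3 and 1511, and 1110.7 and 1316. The difference in the sums therefore came from 3 untreated-only peaks. These were centred at 4994493 in an intron (503.3, percentile 60.32), at 4995524 in a coding exon (1648, percentile 97.48) and at 5000073 in an intron (159, percentile 19.38). The peak at 4995524 was the highest of the gene in the untreated list, 684 bp from the nearest DOP-treated peak. By the highest score alone the lists were nearly equal (1576.3 and 1648, log2 ratio -0.06), so that measure left Arid1b under the 1.5-fold limit.

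Arid2 (chromosome 15, plus strand), the ARID subunit of PBAF, had the highest-scoring peak of the family in each list. Its 6 DOP-treated peaks summed to 10462 over 1200 bp (mean 1744) and its 7 untreated peaks to 11715.9 over 1400 bp (mean 1674), a log2 ratio of -0.16. None was found in a single list. The highest peak lay upstream of the starts, 336 bp in the DOP-treated list (2490, percentile 99.64) and 325 bp in the untreated list (2700, percentile 99.72). The peaks reached from 2525 bp upstream to 926 bp downstream in the DOP-treated list and from 2589 bp upstream to 839 bp downstream in the untreated list. In the untreated list the 7 peaks formed 1 cluster of 3679 bp, and in the DOP-treated list the cluster nearest to a start held 4 peaks over 2181 bp. The 3 ARID genes thus ranged from Arid2, where every peak overlapped one of the other list, to Arid1a, where the peaks at a whole start were in the untreated list alone.

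**Figure D4:**
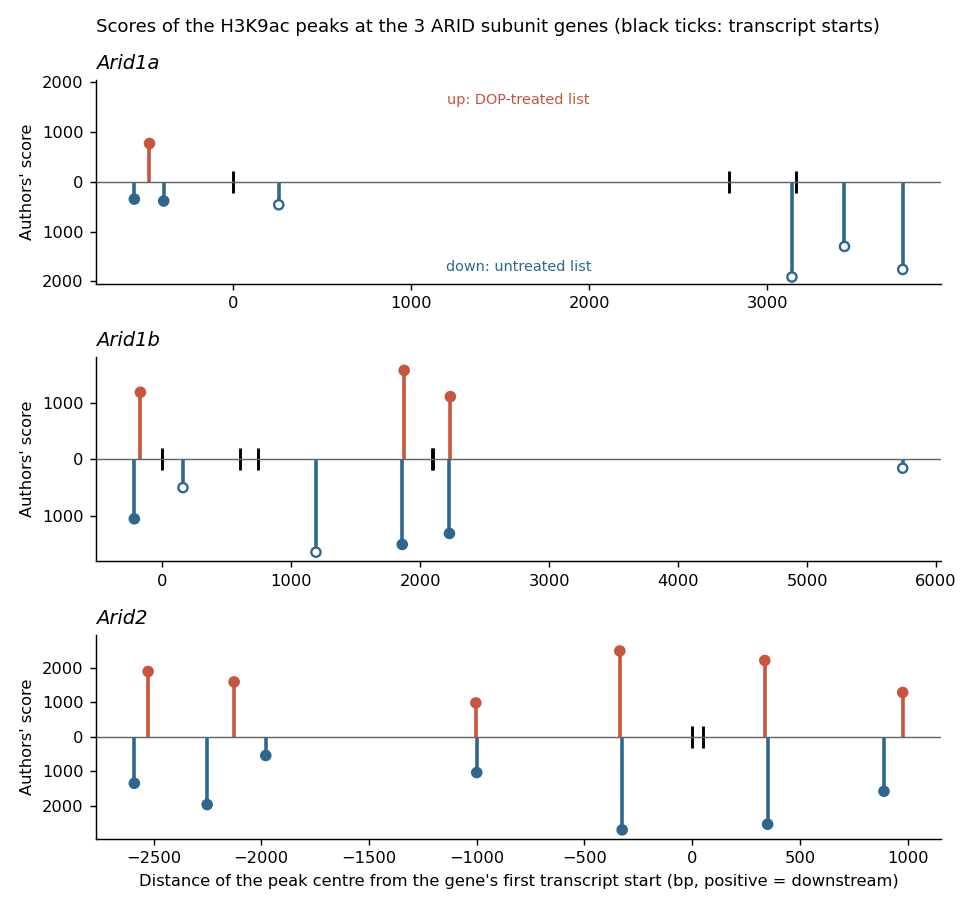
Authors' scores of the H3K9ac peaks at Arid1a, Arid1b and Arid2, plotted against distance in bp from the outermost transcript start of each gene, with the DOP-treated list upwards and the untreated list downwards. Black ticks are transcript starts, filled circles are shared peaks and open circles are peaks of 1 list alone. The inner start of Arid1a has 3 open untreated circles and no DOP-treated stem, whereas all circles at Arid2 are filled.

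The core subunits were nearly balanced in their sums. Smarcb1 (SNF5, chromosome 10), whose loss causes rhabdoid tumours, had 3 peaks in each list with sums of 3929 over 600 bp and 3502 over 477 bp (log2 ratio 0.17, mean score 1310 and 1167). Its highest peak, in a coding exon, scored 2248.7 in the DOP-treated list (percentile 99.43) and 1376.3 in the untreated list (percentile 95.15). The untreated list had another peak, of score 1109.4, 61 bp from that DOP-treated centre, so that 1 DOP-treated peak faced 2 untreated peaks. The DOP-only peak at 75384977, upstream, scored 668 (percentile 71.45) and lay 257 bp from the nearest untreated centre.

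Smarcc1 and Smarcc2, the paired scaffold subunits, gave log2 ratios of 0.12 and -0.01. Smarcc1, on chromosome 9, had 3 peaks in each list with sums of 1997 over 600 bp and 1843 over 469 bp (mean 665.7 and 614.3), and its highest peak, in a coding exon, scored 1145.5 and 868.7. Its DOP-only peak, in an intron at 110035105, scored 277.5 (percentile 33.7). Smarcc2, on chromosome 10, had 4 peaks in each list with sums of 3517 over 691 bp and 3532 over 800 bp (mean 879.2 and 883). Its highest peak, in an intron, scored 1308.5 and 1189.1, with centres 3 bp apart. Its untreated-only peak at 127897374 scored 336 (percentile 42.58), and is the peak printed above with 1 CG dinucleotide.

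Smarcd1 and Smarce1, accessory subunits, gave log2 ratios of 0.03 and 0.21. Smarcd1, on chromosome 15, had 2 peaks in each list, with centres 75 bp apart or less, which covered 275 bp in the DOP-treated and 258 bp in the untreated list. In the DOP-treated list they scored 800.5 and 1159.5, and in the untreated list 1542.2 and 377.8. The stronger peak was the downstream one in the DOP-treated list and the upstream one in the untreated list. The sums were 1960 and 1920 (mean score 980 and 960). The nearest start was that of Smarcd1, but all these centres lay in a coding exon annotated for another gene, Gm17349. The peaks may therefore not belong to Smarcd1 alone. Smarce1, on chromosome 11, had 3 DOP-treated peaks with a sum of 2849 over 600 bp and 2 untreated peaks with 2463 over 400 bp (mean score 949.7 and 1232). Its highest peak scored 1624 and 1809, and its DOP-only peak at 99092138, in the 5′ UTR, scored 929.8 (percentile 84.59), the highest percentile among the 4 DOP-only peaks of the members.

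Every DOP-only peak of the family had an untreated centre between 257 and 359 bp away, beside a peak of the other list. Of the 10 untreated-only peaks, 5 had a DOP-treated centre within 1 kb and the distances ran from 330 to 4234 bp. Where peaks were each other's nearest overlapping partner (27 pairs), the median log2 ratio of the scores was -0.06 and the range -1.15 to 1.62, against a median of 0.128 over all 25377 pairs, with 5% below -0.631 and 5% above 0.937. Their centres differed by a median of 24 bp (29 bp over all pairs). The extremes of the 27 pairs were a pair of Smarce1 (scores 295.2 and 654) and a pair of Smarcd1 (1159.5 and 377.8), genes whose sums were nearly equal between the lists. At these genes single peaks therefore varied more than the sums.

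The members' peaks were close to their starts and rich in CG. Within 1 kb of a start lay 90.9% of the DOP-treated and 88.1% of the untreated peaks of the members, against 69.0% and 69.7% of all pairs of a gene and a peak within 10 kb. Downstream of the start lay 48.5% and 57.1% of them, against 61.3% and 62.5%. The pairs count a peak once for every gene within 10 kb, also where another gene's start is nearer. Every peak of a member was nearest to a start of that member, so the units are unlike. By peak, 25700 of 34286 DOP-treated and 25423 of 33355 untreated peaks of the whole lists lay within 1 kb of a start. Peaks within 1 kb of a start had a median of 17.5 CG dinucleotides per interval in the DOP-treated and 20 in the untreated list, against 13 in both lists over all such peaks. The cluster nearest to a start was also wider, with a median of 1013 bp and 1131 bp, against 703 bp and 683 bp for all genes. The 10 kb limit cut through no dense group: the farthest peaks inside it lay 2525 bp upstream (DOP-treated, Arid2) and 3644 bp downstream (untreated, Arid1b), and the next outside it were those of Smarcb1, 10660 bp and 10619 bp upstream.

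By the percentile of the highest untreated-only peak, the measure most like the choice of Arid1a, its nearest genes were Cdk13 (98.795, against 98.702 for Arid1a) and the pair Gm10800 and Gm10801, which share a peak (98.486). Cdk13, a kinase of RNA polymerase II, had 3 DOP-treated and 6 untreated peaks, and a DOP-treated centre 258 bp from that peak, whereas at Arid1a the distance was 3612 bp.

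Of 21 other subunits of the BAF family of complexes, 20 were matched in the annotation. Of these, 16 had a DOP-treated peak (57.7% of all protein-coding genes) and 15 an untreated peak (56.9%). The subunits Actl6b and Dpf3, known from neuronal complexes, had 0 peaks in both lists, as did Bcl11b and Gltscr1. Phf10, Actl6a and Ss18, known from progenitor complexes, had their highest peaks at percentiles of 99.55, 98.73 and 79.0 in the DOP-treated list and 98.96, 99.05 and 94.16 in the untreated list. Of the other neuronal subunits, Dpf1 had 2 and 4 peaks at percentiles of up to 40.31 and 36.72, and Ss18l1 had 4 and 3 peaks at up to 93.85 and 97.83, above its progenitor counterpart Ss18 in both lists. This grouping was made with the values known. Bcl11a had 1 weak DOP-only peak (64, percentile 5.352) and no untreated peak.

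The median log2 ratio of the 15 other subunits with peaks in both lists was -0.02, against 0.102 over all such genes. None was at least 1.5 times higher in the DOP-treated list (6.04% of genes). Bcl7a was the 1 subunit at least 1.5 times higher in the untreated list (1.49% of genes), with sums of 726 and 1972 (log2 ratio -1.44). Its peaks did not overlap between the lists at all, with 1 DOP-only peak at percentile 74.85 and 2 untreated-only peaks, the higher at 89.63. Other untreated-only peaks in the upper part of the list stood at Bcl7b (64.16), Actb (62.56), Phf10 (58.2) and Pbrm1 (55.36), and a DOP-only peak at Ss18 (50.19). All lay below the percentiles of the inner group of Arid1a. Since Arid1a was picked for such a peak, this difference follows from the choice.

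**Figure D5:**
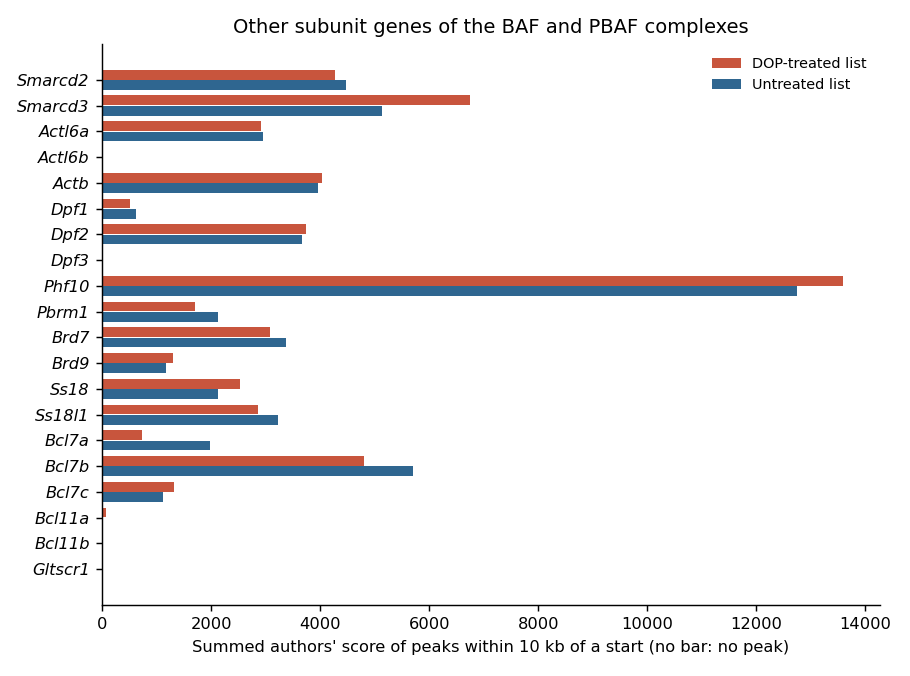
Summed score of the H3K9ac peaks within 10 kb of a start of the 20 other subunit genes, as bars from 0 for the DOP-treated and the untreated list, with 1 value per list and no replicate, and no bar where a gene had no peak. The bars of Bcl7a differ most as a ratio (726 and 1972), those of the other genes with peaks in both lists are within 1.5 times of each other, and Phf10 has the longest (13590 and 12750).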

How the data were processed

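H3K9ac ChIP-seq was made from 2 DOP-treated and 2 untreated samples of STHdh Q111 cells and from 1 IgG sample. The methods name Bowtie 2 for alignment to the mm9 assembly and GPS for peak calling, while the submitters' processing notes list BWA 0.7.10. The authors deposited 1 list of 200-bp intervals for each condition, with a centre and a score per interval. The paper reports fewer peaks for each condition than these lists hold. It also compared the conditions after normalising peak intensities, which was not done here. The score was deposited without a definition, and that definition, the threshold, the use of the IgG sample and the handling of samples of the same condition are not given in the sources used here. Depth per sample is unknown. The IgG sample and the RNA-seq experiment were not analysed here.

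No peak ran past a chromosome end of the NCBIM37 assembly, which is mm9. Gene models, with starts and UTRs, were the 22380 that GENCODE vM1 marks as protein-coding. Peaks were shared at an overlap of at least 1 bp, belonged to a gene within 10 kb of any of its starts, and were chained into clusters within 1 kb. Sums of scores were compared as log2 ratios without a pseudocount or a scaling between the lists, with a fold limit of 1.5. With 1 list per condition no test was made. All 10 members were named, with each single-list peak and the highest peak per list, and other subunits where they lacked a peak or had a single-list peak in the top 50% of its list. The genes most like Arid1a were the 3 nearest in the percentile of the highest untreated-only peak. The members, lists and rules were chosen with earlier results of these data known. Functions were tested on 4000 simulated peaks, with 6 of 6 planted answers recovered. Alternatives changed the window, the rule for sharing, the score limits, the scaling and the chaining distance. Python 3.11.15, numpy 2.4.6, pandas 2.3.3, pysam 0.24.0, samtools 1.23.1 and matplotlib 3.10.9 were used.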

Additional observations from a re-analysis of the deposited data

How the results depend on the processing

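Counts of single-list peaks depended most on the rule for sharing. The 4 DOP-only peaks of the members became 7 with a window of 20 kb, 8 with a reciprocal overlap of at least 50%, 2 when the top 50% of a list was set against all of the other, and 0 when centres within 500 bp or within 1 kb counted as shared. The 10 untreated-only peaks became 14 with a reciprocal overlap of at least 50%, 9 with centres within 500 bp and 5 with centres within 1 kb. They became 6 when the top 50% was set against all of the other list. Without Arid1a, an alternative chosen after seeing the data, there were also 6. The median log2 ratio of summed score over the members was -0.128 with the median of all genes set to 0, and the pooled median cluster width fell from 1036 bp to 370 bp with chaining within 500 bp. Arid1b's log2 ratio was -0.06 with the highest score in place of the sum, while that of Arid1a ran from -3.10 to -1.31. Of the 67 values recomputed under settings other than leaving out Arid1a, 57 stayed within the limits used: 1.5 times for a count or width, 0.1 for the median log2 ratio, and the same direction and side of 1.5-fold for a single gene. Without Arid1a, 7 of 8 did. Among the 67, every count of members with a peak stayed at 10. A score limit of 100, the nearest start only and protein-coding starts only left every count of peaks unchanged. The total of 57 includes such values, and is no measure of how stable the single-list counts are. No paired analysis was possible because a condition has a single list without replicate numbers, and for the same reason no replicate could be left out. Depth is unknown, so a peak missing from a list was not detected in that call and is not shown to be absent.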

Other observations

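ATPases of other remodelling families were examined in the same lists. All 17 symbols, from the ISWI, CHD, INO80 and related families, had peaks in both lists. Of all protein-coding genes, 57.7% had a DOP-treated peak and 56.9% an untreated peak. None of the 17 had a sum at least 1.5 times higher in the DOP-treated list (6.04% of genes) or in the untreated list (1.49%). Their median log2 ratio of summed score, DOP-treated over untreated, was 0.133, against 0.102 over all genes with a peak in both lists. Their starts had 58 peaks in the DOP-treated list, 8 of them (13.8%) DOP-only beside 20% of the whole list, and 50 in the untreated list, 5 of them (10%) untreated-only beside 16.7%. The CHD remodellers Chd4 and Chd1 had the lowest ratios (-0.48 and -0.42). Chd4, the ATPase of the NuRD complex, which joins remodelling to histone deacetylation, had 2 DOP-treated and 3 untreated peaks, and Chd9 and Hells had the highest ratios (0.38 and 0.32).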
